A study of Mus musculus with 4 samples.

Results

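The 36 genes described here cover glucose uptake, glycolysis, lactate handling and the entry of pyruvate into mitochondria. They were chosen by name, with no measured value in the rule, and each is read from its brightest probe by mean over 4 single-colour Agilent mouse arrays. All 36 passed the filter on dim probes and were well above background on all 4 arrays, among 22475 genes tested. The RNA was that of C57BL/6 regulatory T (Treg) cells differentiated in vitro: 2 arrays labelled Junbfl/flCd4-Cre, in which Cre is driven by Cd4 sequences in T cells and both Junb alleles are flanked by loxP sites, and 2 control arrays labelled Junbfl/fl, which carry the same floxed alleles without a stated Cre. In both groups, sorted naive CD4+ cells grew for 3 days with TGF-β1 (5 ng/ml), antibodies to IL-4 and IFN-γ (5 μg/ml of each), anti-CD28 (0.5 μg/ml) and plate-bound anti-CD3 (1 μg/ml). The age and sex of the mice are not given in the labels used here. Whether 2 arrays of the same genotype stem from different mice or cultures is not labelled. The p-values therefore reflect only how much these arrays varied, which may be technical variation.

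Glycolysis splits glucose into pyruvate in the cytosol and yields ATP and building blocks along the way. Activated T cells are known to raise glucose uptake and glycolysis and to release much of the pyruvate as lactate, whereas Treg cells are known to lean more on mitochondrial oxidation of pyruvate and fatty acids. JunB belongs to the AP-1 family of transcription factors, which T cell receptor stimulation induces.

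The targeted gene was read by 3 probes, and the sources used here do not say which part of Junb the loxP sites flank. At the probe at chr8:87501881-87501940 (mm9) the processed intensity was 4.11 and 1.47 on the arrays labelled Junbfl/flCd4-Cre, neither well above background, against 47.2 and 31.7 on the controls. At the probe at chr8:87500843-87500902 it was 1053 and 10078 on the arrays labelled Junbfl/flCd4-Cre, against 9791 and 9072 on the controls, so array 2 of that genotype stood with the controls at this probe. The probe at chr8:87496635-87496694 was not well above background on any array. A probe outside the deleted part cannot check the label. The 2 arrays labelled Junbfl/flCd4-Cre also differed widely from each other at the probe at chr8:87500843-87500902, and the cause was not tested. Results are therefore also given without array 2 of Junbfl/flCd4-Cre.

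The label on RNA extraction speaks of colon, whereas all others describe Treg cells from culture. All 6 measured T cell markers were well above background on all arrays, and their summed processed intensity was 49672 and 39429 on the arrays labelled Junbfl/flCd4-Cre, against 86974 and 81530 on the controls, with Thy1 and Cd2 called lower and a median log2 difference of -0.40. The 4 Treg markers summed to 3464 and 5043 on the arrays labelled Junbfl/flCd4-Cre, against 14570 and 13607 on the controls, with Ctla4 called lower and Ikzf2 higher. Of 8 colon epithelium markers, Cdh1, Krt19, Vil1 and Muc2 were not well above background on any array. The other 4 (Epcam, Krt8, Car1 and Lgals4) were well above it on both arrays labelled Junbfl/flCd4-Cre and 3 of them on both controls. The 8 summed to 390.3 and 390.1 on the arrays labelled Junbfl/flCd4-Cre, against 339 and 481 on the controls. The 5 stromal markers summed to 154 and 91.7 on the arrays labelled Junbfl/flCd4-Cre, against 91.5 and 82.8 on the controls, and 2 of them (Col1a1 and Dcn) were called higher. The 6 myeloid markers summed to 7272 and 3250 on the arrays labelled Junbfl/flCd4-Cre, against 3950 and 2557 on the controls, with Adgre1 not well above background on any array. The 4 B cell markers summed to 432 and 215 on the arrays labelled Junbfl/flCd4-Cre, against 238 and 61.9 on the controls, and Ms4a1 was called higher. These sums are not scaled to each array's 75th percentile, whereas the log2 differences are. The median log2 difference of the Treg markers was -1.336. Over the markers that passed the filter on dim probes, it was 0.396 for colon epithelium and 1.876 for stroma. It was 1.601 for the myeloid and 1.130 for the B cell markers. Marker medians here and below are not set against genes of like brightness. With all genes sorted into 5 bins by control signal, the median difference was 1.19 in the dimmest bin and -0.41 in the brightest. The part of the marker differences in the results was not tested. In such bulk samples, fewer cells of a type and less RNA per cell cannot be told apart.

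Values are given as the scaled log2 signal, which is the log2 of the processed intensity over the array's own 75th percentile across probes (119 and 101 on the arrays labelled Junbfl/flCd4-Cre, 151 and 145 on the controls). Differences are Junbfl/flCd4-Cre minus control on this log2 scale with the standard error of the limma fit (n = 2 arrays per genotype), and a gene is called at a Benjamini-Hochberg adjusted p under 0.05 over all genes.

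Of the 36 genes, 5 were called lower in the arrays labelled Junbfl/flCd4-Cre and 0 were called higher: Slc2a1, Tpi1, Pgk1, Pgam1 and Eno1. Over all genes, 1.43% were called lower and 7.03% higher by the same limma test, 8.46% in all. At an unadjusted p under 0.05, 14 of the 36 were lower and 4 higher, against 19.1% and 22.3% of all genes. Scaling to the array median in place of the 75th percentile moved the median difference of all genes to -0.52 and turned the split of calls over all genes to 1980 higher of 9416, against 1580 higher of 1901 here. The 5 calls lay at adjusted p between 0.0307 and 0.0487. They were lost under quantile or cyclic loess normalization, where 455 and 703 of all 22475 genes were called. They were also lost with no filter on dim probes, where no gene at all was called. In these settings limma called 0 of the 36 genes, and 13 to 16 were at an unadjusted p under 0.05. Leaving out any 1 of the 4 arrays also removed the 5 calls, along with all calls over all genes. With normexp and quantile normalization 1 of the 36 was called (315 of all genes), and with the authors' deposited log2 signals 2 (618 of all genes). More were called when scaled to the array median (20, with 9416 of all genes). With a trend of the variance on signal 13 were called, of which 4 were higher, and 4154 of all genes. With the replicate number as a block 14 were called, of which 4 were higher, and 6849 of all genes. No label ties these replicate numbers into pairs.

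**Figure D1:**
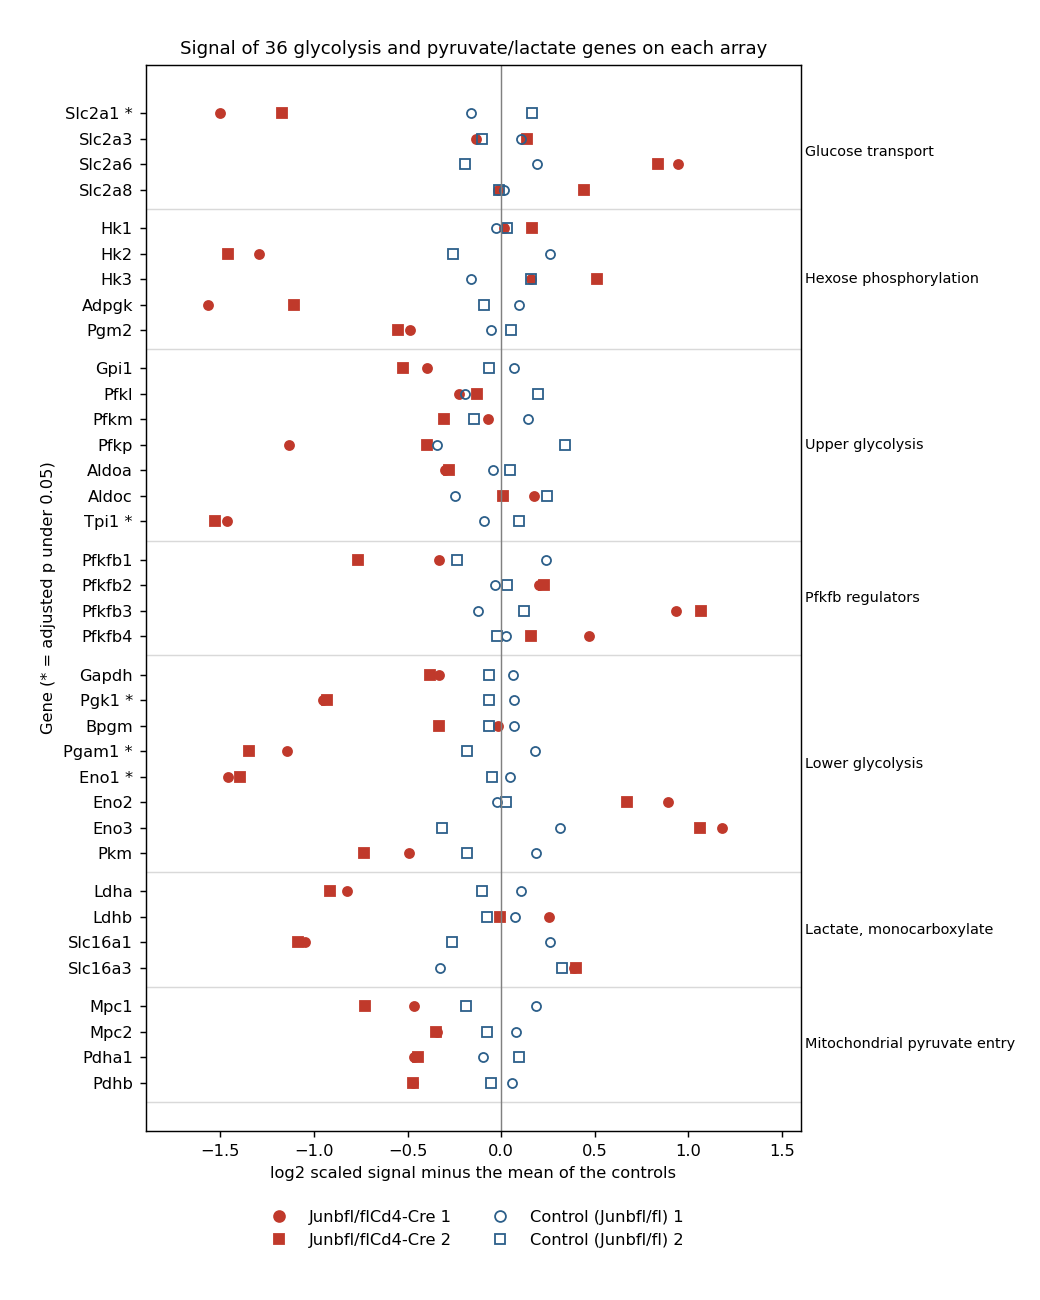
Each row is a gene, grouped by role, and the x axis is the log2 scaled signal minus the mean of the controls. Filled red symbols are the 2 arrays labelled Junbfl/flCd4-Cre, open blue symbols are the 2 controls, and an asterisk marks the 5 genes called by limma. Both filled symbols lie left of both open ones for 20 genes and right of both for 7.

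The median differences by role lay below 0 for 5 of the 7 groups of genes, of which upper glycolysis (0.05) and the lactate genes (0.02) were above 0 under cyclic loess normalization. The median of the Pfkfb enzymes lay above 0 (0.26), but at -0.27 when scaled to the array median. That of glucose transport was 0.11, and lay below 0 when scaled to the array median (-0.43), under quantile (-0.08) and cyclic loess normalization (-0.0031), with the authors' log2 signals (-0.013) and without array 2 of Junbfl/flCd4-Cre (-0.075), so no direction is given for it. In 20 genes both arrays labelled Junbfl/flCd4-Cre were below both controls, in 7 both were above, and in 9 the genotypes overlapped. Over all genes these placements made up 38.5% and 36.6% of genes, and the share with both arrays labelled Junbfl/flCd4-Cre below both controls was higher among bright genes. With all genes sorted into 5 equal bins by control signal, it was 74.2% in the brightest bin, which holds 17 of the 36, and 62.3% in the next, which holds 10. The difference was below 0 in 23 of the 36 genes and in 49.5% of all genes, and its median was -0.35 over the 36 and 0.01 over all genes. Without array 2 of Junbfl/flCd4-Cre the median over the 36 was -0.33. Arrays numbered 1 lay in one row of the slide and arrays numbered 2 in another, and within these rows the median was -0.38 and -0.32, with 23 genes below 0 and 10 above 0 in both.

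Slc2a1 encodes GLUT1, the main glucose transporter of activated T cells. Its probe (chr4:118809864-118809923, mm9) had processed intensities of 334 and 356 on the arrays labelled Junbfl/flCd4-Cre, against 1071 and 1286 on the controls, or scaled log2 signals of 1.48 and 1.82 against 2.82 and 3.15. With no overlap between genotypes, the gene fell 2.53-fold (log2 difference -1.34 ± 0.22, adjusted p = 0.0487). The difference was -1.50 without array 2 of Junbfl/flCd4-Cre.

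The other 3 glucose transporters were not called. Slc2a6, a transporter of haematopoietic cells that sits largely on lysosomes, had scaled log2 signals of 3.23 and 3.11 on the arrays labelled Junbfl/flCd4-Cre, against 2.47 and 2.09 on the controls (0.89 ± 0.20, adjusted p = 0.0683). Both arrays labelled Junbfl/flCd4-Cre were above both controls, and a second probe gave a difference of 0.89. Slc2a3, which encodes the high-affinity transporter GLUT3, had 0.66 and 0.93 on the arrays labelled Junbfl/flCd4-Cre, against 0.90 and 0.69 on the controls, and Slc2a8 had -3.12 and -2.66, against -3.09 and -3.12. Both of these overlapped between genotypes, with differences of 0.00 ± 0.18 and 0.21 ± 0.22.

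Hexokinases trap glucose in the cell as glucose-6-phosphate, and none of the 3 measured was called at its brightest probe. Hk2, the inducible hexokinase, had scaled log2 signals of -0.96 and -1.12 on the arrays labelled Junbfl/flCd4-Cre, against 0.60 and 0.08 on the controls (-1.38 ± 0.24, adjusted p = 0.0528). The genotypes did not overlap, and the difference was as large as that of Slc2a1 while its p lay just over the threshold. Hk1, the widely expressed form, had 8.38 and 8.52 on the arrays labelled Junbfl/flCd4-Cre, against 8.33 and 8.39 on the controls (0.09 ± 0.15). Its other tested probes gave -0.51 and 0.36, so no direction can be given for Hk1. Hk3 overlapped as well (0.33 ± 0.22, adjusted p = 0.301). A dim second Hk3 probe, well above background on 3 arrays, had processed intensities of 11.3 and 9.27 on the arrays labelled Junbfl/flCd4-Cre, against 5.97 and 6.39 on the controls. It gave 1.16 and was called higher when each of 33606 probes was tested (adjusted p = 0.0389, with 5.53% of probes called higher).

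Adpgk encodes a glucokinase that uses ADP in place of ATP and has been linked to T cell activation. It had scaled log2 signals of 0.77 and 1.23 on the arrays labelled Junbfl/flCd4-Cre, against 2.43 and 2.24 on the controls (-1.34 ± 0.23, adjusted p = 0.0509). No array of one genotype overlapped the other, and its 3 probes gave differences between -1.34 and -1.18. The probe named Pgm2 in the files belongs by its accession to the phosphoglucomutase that RefSeq now names Pgm1, which links glycogen and glucose-6-phosphate. It had 2.87 and 2.81 on the arrays labelled Junbfl/flCd4-Cre, against 3.31 and 3.41 on the controls (-0.52 ± 0.15, adjusted p = 0.0866).

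In upper glycolysis, 6 of 7 genes had a difference below 0, as did 49.5% of all genes, and 1 was called. Relative to the median of all genes in the same bin of control signal, Tpi1 was at -1.09, Pfkp at -0.36 and Gpi1 at -0.05. On this measure Pfkl was at 0.12, Pfkm at 0.10, Aldoa at 0.12 and Aldoc at 0.11. Tpi1, triosephosphate isomerase, interconverts the pair of three-carbon sugars that aldolase makes. Its probe (chr6:124760947-124761006, mm9) had processed intensities of 1786 and 1443 on the arrays labelled Junbfl/flCd4-Cre, against 5860 and 6373 on the controls, or scaled log2 signals of 3.90 and 3.84 against 5.28 and 5.46. The genotypes stood clearly apart, and Tpi1 fell 2.83-fold (-1.50 ± 0.16, adjusted p = 0.0318), with -1.47 without array 2 of Junbfl/flCd4-Cre. Of its 4 tested probes 3 gave differences between -1.55 and -1.49, and a dim probe with processed intensities of 13.6 and 10.2 on the arrays labelled Junbfl/flCd4-Cre, against 11.2 and 10.4 on the controls, gave 0.56.

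The other upper enzymes were not called. Gpi1, glucose-6-phosphate isomerase, had scaled log2 signals of 6.62 and 6.49 on the arrays labelled Junbfl/flCd4-Cre, against 7.08 and 6.94 on the controls (-0.46 ± 0.15, adjusted p = 0.109), and its 4 probes all lay below 0. The 3 phosphofructokinases, which catalyse the committed step of glycolysis, gave -0.18 ± 0.20 for Pfkl, -0.19 ± 0.19 for Pfkm and -0.77 ± 0.39 for Pfkp. Pfkp had the largest error of the 36 genes, with 2.40 and 3.14 on the arrays labelled Junbfl/flCd4-Cre, against 3.20 and 3.88 on the controls. A second Pfkl probe gave -0.96 and was called when each probe was tested by itself (adjusted p = 0.047 over 33606 probes). Of these, 1.25% were called lower. Aldoa and Aldoc, aldolases that split fructose-1,6-bisphosphate, gave -0.29 ± 0.14 and 0.09 ± 0.23.

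The Pfkfb enzymes make and degrade fructose-2,6-bisphosphate, an activator of phosphofructokinase, and 3 of 4 had both arrays labelled Junbfl/flCd4-Cre above both controls, a placement of 36.6% of all genes. Pfkfb3, the form with the strongest kinase activity, had scaled log2 signals of 3.52 and 3.65 on the arrays labelled Junbfl/flCd4-Cre, against 2.47 and 2.71 on the controls (1.00 ± 0.17, adjusted p = 0.0514). Its second probe gave 1.50 and was called when each probe was tested (adjusted p = 0.033). Pfkfb2 and Pfkfb4 differed by 0.21 ± 0.14 and 0.31 ± 0.18. Pfkfb1 had -0.03 and -0.46 on the arrays labelled Junbfl/flCd4-Cre, against 0.54 and 0.07 on the controls (-0.55 ± 0.27, adjusted p = 0.197).

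Lower glycolysis, from glyceraldehyde-3-phosphate to pyruvate, held 3 of the 5 calls. Eno1, the enolase of most tissues, was measured at chr4:149622928-149622987 (mm9). Its processed intensities were 5461 and 4825 on the arrays labelled Junbfl/flCd4-Cre, against 19687 and 17596 on the controls, or scaled log2 signals of 5.52 and 5.58 against 7.02 and 6.93. It fell 2.69-fold with no overlap (-1.43 ± 0.15, adjusted p = 0.0307), and its other probes gave -1.36 and -0.78. Without array 2 of Junbfl/flCd4-Cre the difference was -1.46.

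Pgam1, the phosphoglycerate mutase one step before enolase, was measured at chr19:41992898-41992957 (mm9). It had scaled log2 signals of 4.62 and 4.42 on the arrays labelled Junbfl/flCd4-Cre, against 5.95 and 5.59 on the controls. Without overlap between genotypes, Pgam1 fell 2.37-fold (-1.25 ± 0.20, adjusted p = 0.0487), with a second probe at -1.23 and a difference of -1.15 without array 2 of Junbfl/flCd4-Cre. Pgk1, phosphoglycerate kinase, which makes the first ATP of the pathway, was measured at chrX:103398915-103398974 (mm9). It had 7.19 and 7.21 on the arrays labelled Junbfl/flCd4-Cre, against 8.21 and 8.07 on the controls, and fell 1.92-fold (-0.94 ± 0.15, adjusted p = 0.0467). Without array 2 of Junbfl/flCd4-Cre the difference was -0.95. A second, dim Pgk1 probe gave 0.22, and the mean over both probes, -0.36, was not called.

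Gapdh, which oxidises glyceraldehyde-3-phosphate, was not called at its brightest probe. It had scaled log2 signals of 8.09 and 8.04 on the arrays labelled Junbfl/flCd4-Cre, against 8.49 and 8.36 on the controls (-0.36 ± 0.15, adjusted p = 0.152). All 7 Gapdh probes lay below 0, between -0.75 and -0.36, and the 6 other probes were all further from 0 than the brightest. Cyclic loess normalization turned the brightest probe to 0.07. Gapdh, Eno1 and other glycolytic genes have near-identical processed copies in the mouse genome, and whether a probe also binds RNA of such a copy is not known here.

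Eno2 and Eno3, the neuronal and muscle enolases, had differences opposite in sign to that of Eno1. Eno2 had scaled log2 signals of 0.40 and 0.18 on the arrays labelled Junbfl/flCd4-Cre, against -0.52 and -0.47 on the controls (0.78 ± 0.16, adjusted p = 0.0628). Eno3 had 3.85 and 3.73 on the arrays labelled Junbfl/flCd4-Cre, against 2.98 and 2.35 on the controls (1.12 ± 0.27, adjusted p = 0.0734). Neither overlapped between genotypes and neither was called. The neuronal marker Rbfox3 and the muscle markers Ckm and Myh1 were not well above background on any array. The 3 other neuronal markers (Snap25, Syt1 and Tubb3) were well above background on all arrays, with a median log2 difference of 0.92, and of the 2 other muscle markers 1 was, with 0.50. The 4 neuronal markers summed to 5084 and 1238 on the arrays labelled Junbfl/flCd4-Cre, against 2560 and 1228 on the controls, and the 4 muscle markers to 113 and 74.3, against 95.7 and 103 on the controls. Their part in the Eno2 and Eno3 values was not tested.

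Pkm, pyruvate kinase, had scaled log2 signals of 6.31 and 6.07 on the arrays labelled Junbfl/flCd4-Cre, against 6.99 and 6.62 on the controls (-0.61 ± 0.21, adjusted p = 0.114). The genotypes did not overlap and its 4 probes all lay below 0, between -0.97 and -0.41. Bpgm, which makes the red cell metabolite bisphosphoglycerate, overlapped (-0.18 ± 0.18, adjusted p = 0.487). The 4 erythroid markers summed to 3072 and 56.0 on the arrays labelled Junbfl/flCd4-Cre, against 2148 and 26.8 on the controls, so they were high on the arrays numbered 1 of both genotypes.

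**Figure D2:**
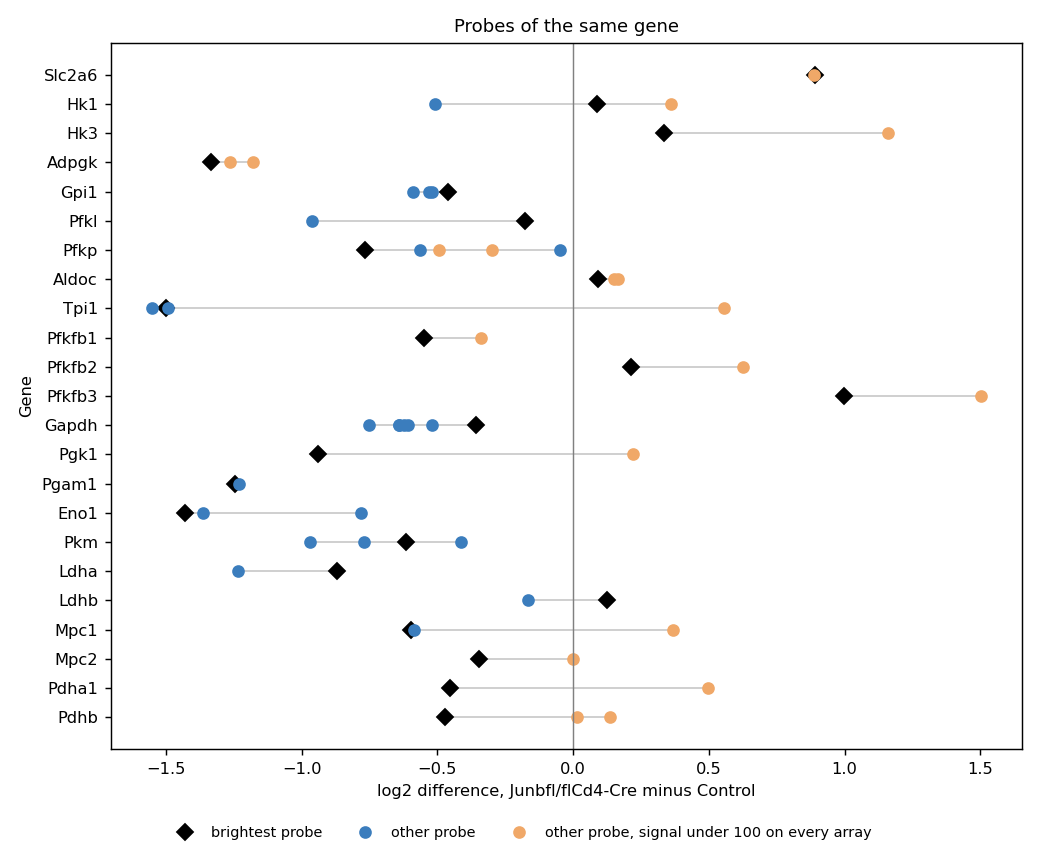
The x axis is the log2 difference, Junbfl/flCd4-Cre minus control, and each row is 1 of the 23 genes with several tested probes. Black diamonds are the brightest probe, blue circles other probes, and orange circles other probes with a processed signal under 100 on every array. All tested probes of a gene had the same sign in 15 of the 23 genes, and the Tpi1, Pgk1, Mpc1 and Pdha1 probes on the far side of 0 are all orange.

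The array carried 87 usable probes for the 36 genes, 79 passed the filter and 52 of these had a difference below 0. The plot of probes of the same gene shows that Gapdh, Gpi1, Adpgk, Pgam1 and Pkm each had all their probes on the side below 0. In 8 genes (Hk1, Ldhb, Tpi1, Pgk1, Mpc1, Mpc2, Pdha1 and Pdhb) some probe lay at or above 0 and another below it.

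Among the lactate genes none was called. Ldha, the lactate dehydrogenase subunit that favours making lactate, had scaled log2 signals of 7.65 and 7.56 on the arrays labelled Junbfl/flCd4-Cre, against 8.57 and 8.37 on the controls (-0.87 ± 0.16, adjusted p = 0.0560). The genotypes did not overlap, and a second probe gave -1.24 and was called when each probe was tested (adjusted p = 0.0492). Ldhb, the subunit that favours pyruvate, overlapped (0.13 ± 0.18, adjusted p = 0.602). Slc16a1, the lactate transporter MCT1, had 1.85 and 1.81 on the arrays labelled Junbfl/flCd4-Cre, against 3.16 and 2.64 on the controls (-1.07 ± 0.23, adjusted p = 0.0663). Slc16a3, the lactate exporter MCT4, had 2.99 and 3.00 on the arrays labelled Junbfl/flCd4-Cre, against 2.28 and 2.93 on the controls (0.39 ± 0.27, adjusted p = 0.319), with control 2 close to both arrays labelled Junbfl/flCd4-Cre.

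The 4 genes of mitochondrial pyruvate entry had the narrowest range of differences among the roles, -0.60 to -0.35, and none was called. Mpc1 and Mpc2 form the mitochondrial pyruvate carrier and gave -0.60 ± 0.21 and -0.35 ± 0.15 (adjusted p = 0.123 and 0.162). Pdha1 and Pdhb encode the E1 subunits of pyruvate dehydrogenase and gave -0.45 ± 0.15 and -0.47 ± 0.14 (adjusted p = 0.113 and 0.0972). At these probes both arrays labelled Junbfl/flCd4-Cre were below both controls in all 4 genes, as in 74.2% of all genes in the brightest bin. A dimmer Mpc1 probe gave -0.59, close to the brightest. The other dimmer probes gave other values: 0.37 for Mpc1, 0.00 for Mpc2, 0.50 for Pdha1, and 0.13 and 0.01 for Pdhb. With the mean over the probes of a gene, the median of the 4 was -0.14 and 3 of them lay below 0. At the brightest probes their median, -0.46, lay close to the median of all genes in the brightest bin, -0.41.

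**Figure D3:**
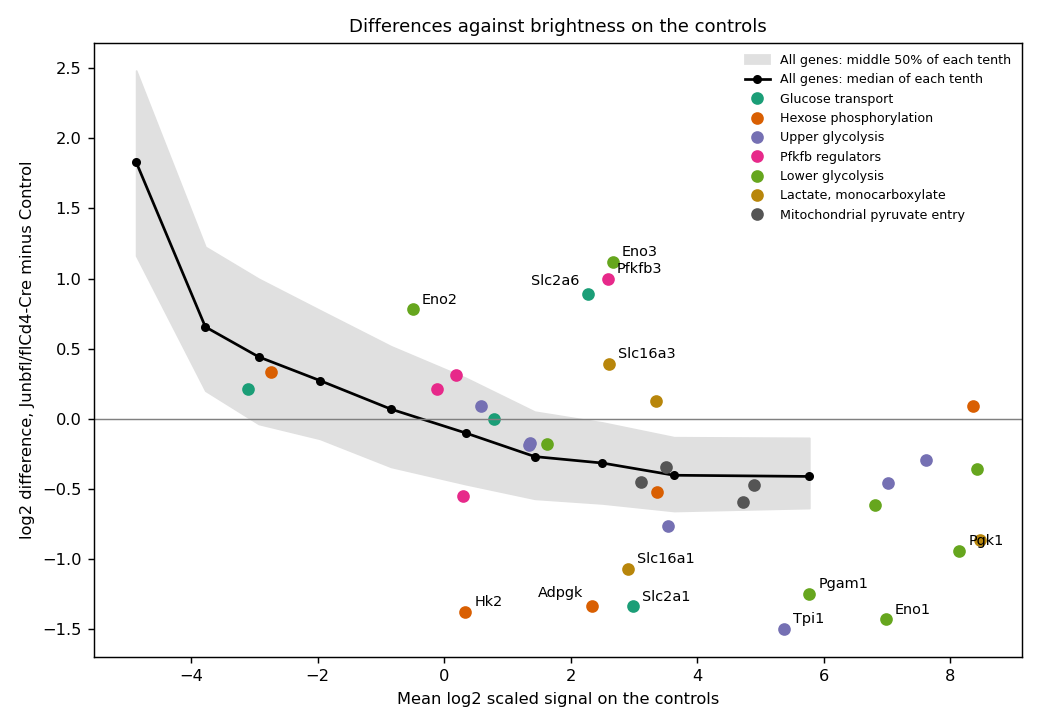
The x axis is the mean scaled log2 signal on the controls and the y axis the log2 difference, Junbfl/flCd4-Cre minus control. The black line joins the medians of all genes in 10 bins of control signal, the grey band holds the middle 50% of each bin, and coloured points are the 36 genes by role. The line falls across the plot, with a median of 1.83 in the dimmest bin and -0.41 in the brightest. The control signal enters both axes. The points labelled Tpi1, Pgam1, Slc2a1, Adpgk, Hk2 and Slc16a1 lie below the band. Those labelled Eno1 and Pgk1 lie to the right of where the band ends, below the lower quartile of the brightest bin (-0.64).

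The difference between genotypes moved with probe brightness over all genes, as the plot of differences against brightness shows. The control signal is part of both the bins and the difference, which by itself lowers the difference as control signal rises. A gene dim on the controls could also pass the filter through the arrays labelled Junbfl/flCd4-Cre alone. How much of the trend stems from these choices was not tested. In the 5 bins of control signal the median difference of all genes was 1.19, 0.36, -0.02, -0.29 and -0.41, dimmest to brightest. The 36 genes fell mostly into bright bins, with 0, 2, 7, 10 and 17 genes, and 4 of the 5 calls were in the brightest bin. The share of all genes called lower was 2.09% in that bin and 2.22% in the next. The 17 genes in the brightest bin had a median of -0.52, and the 10 in the next a median of -0.18.

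Measured against the median of all genes in their own bin, 19 of the 36 genes lay below it and 17 above, with a median of -0.04. The list as a whole therefore sat within 0.1 of genes of like brightness, while single genes lay far to either side. On this measure Tpi1 was at -1.09, Slc2a1 at -1.05, Eno1 at -1.02, Pgam1 at -0.84 and Pgk1 at -0.53. Hk2 was at -1.36, Adpgk at -1.05 and Slc16a1 at -0.78. On the other side Eno3 was at 1.41, Pfkfb3 at 1.29, Slc2a6 at 1.18 and Eno2 at 0.80. These values are descriptions with no test.

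**Figure D4:**
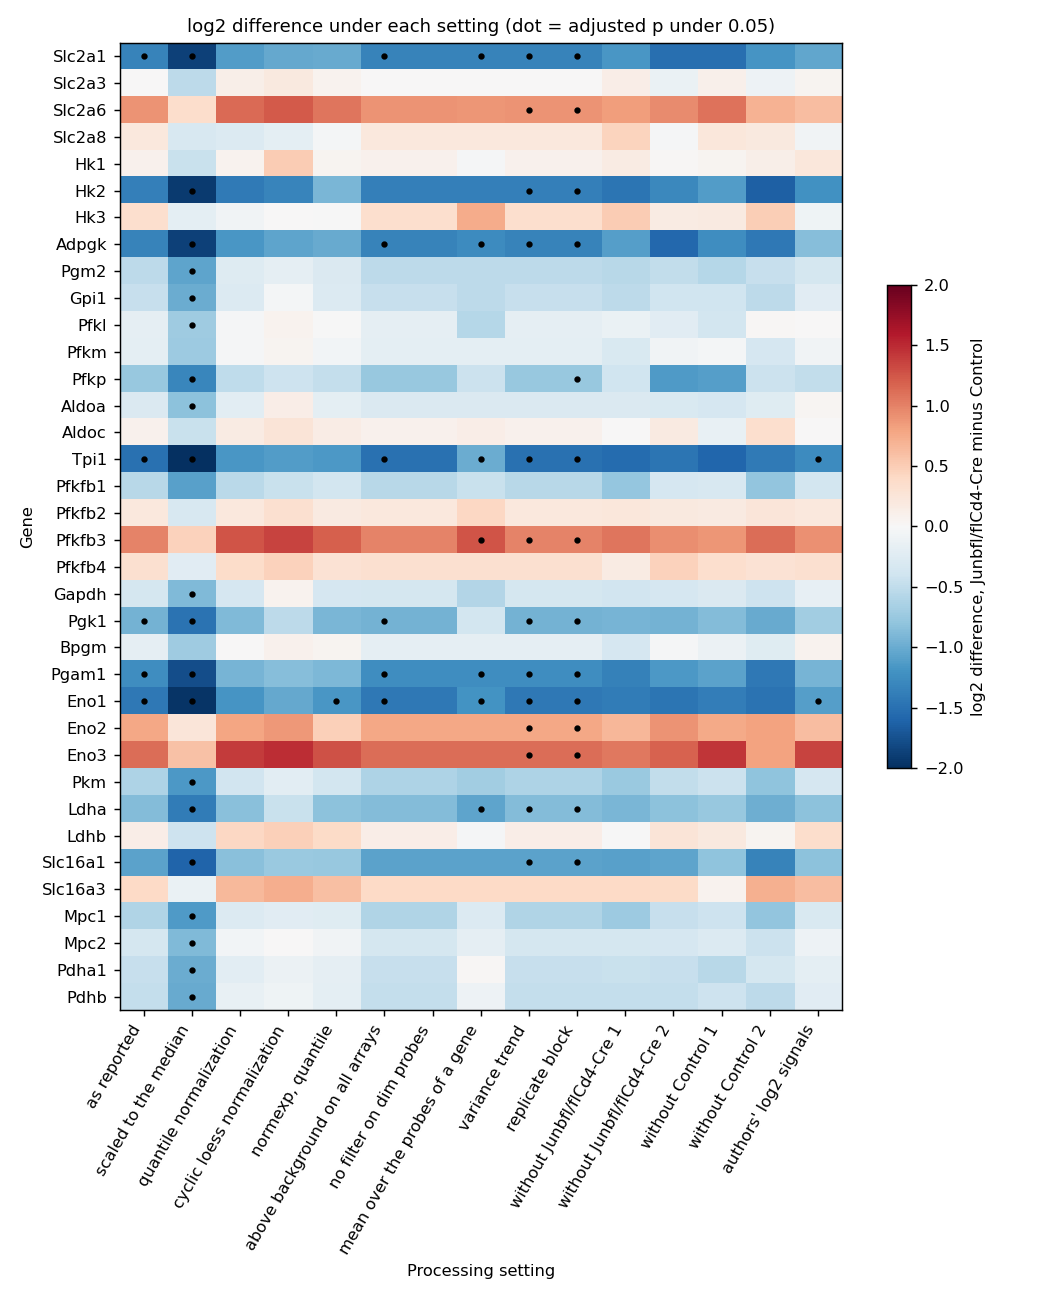
Rows are the 36 genes and columns the processing settings, with the values as reported at the left. Colour is the log2 difference, Junbfl/flCd4-Cre minus control, blue below 0 and red above 0, and a dot marks an adjusted p under 0.05. In every column, 16 genes are below 0 and 4 genes (Slc2a6, Pfkfb3, Eno2 and Eno3) above 0, while the dots differ between columns.

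The sign of 20 genes held across all the settings in the map of differences under each setting. The 16 below 0 in each of them include the 5 called genes, Hk2, Adpgk, Ldha, Slc16a1 and Pkm. Slc2a6, Pfkfb3, Eno2 and Eno3 stayed above 0 in each, including scaling to the array median. The authors' deposited table listed all 36 genes, 22 with a negative log2 difference, and gave an adjusted p under 0.05 to 2 of them. In the authors' deposited table Tpi1 had a log2 difference of -1.26 (adjusted p = 0.039) and Eno1 of -1.10 (adjusted p = 0.048), and 31 of the 36 genes had the same sign as here. That table names another probe than the one used here for 6 genes, Tpi1 and Eno1 among them.

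Promoters are shown for the 9 genes with the lowest log2 differences, a number chosen after the values were seen. They are the 5 called genes with Hk2, Adpgk, Slc16a1 and Ldha, which were not called. The 250 bases before the transcription start were taken from RefSeq (GRCm38.p6), which matched 35 of the 36 genes. ACGTG, the core of the hypoxia response element, and CACGTG, the E-box that MYC and related factors can bind, were searched on both strands, and every CACGTG also counts as ACGTG on both. The windows are Slc2a1 chr4:119108495-119108744 on the plus strand, Hk2 chr6:82774455-82774704 on the minus strand, Adpgk chr9:59291322-59291571 on the plus strand, Tpi1 chr6:124814159-124814408 on the minus strand, Pgk1 chrX:106186850-106187099 on the plus strand, Pgam1 chr19:41911621-41911870 on the plus strand, Eno1 chr4:150236458-150236707 on the plus strand, Ldha chr7:46845554-46845803 on the plus strand, Slc16a1 chr3:104638414-104638663 on the plus strand. The sequences run 5′ to 3′ on the gene's strand, and capitals mark every match to either motif. An ACGTG on the opposite strand reads CACGT here. Eno1 and Ldha have several windows, of which only the first listed is shown.
Slc2a1: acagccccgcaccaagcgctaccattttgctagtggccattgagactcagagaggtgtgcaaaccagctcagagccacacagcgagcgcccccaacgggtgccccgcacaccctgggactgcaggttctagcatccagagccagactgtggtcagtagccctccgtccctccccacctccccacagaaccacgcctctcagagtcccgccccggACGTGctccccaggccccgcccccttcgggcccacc
Hk2: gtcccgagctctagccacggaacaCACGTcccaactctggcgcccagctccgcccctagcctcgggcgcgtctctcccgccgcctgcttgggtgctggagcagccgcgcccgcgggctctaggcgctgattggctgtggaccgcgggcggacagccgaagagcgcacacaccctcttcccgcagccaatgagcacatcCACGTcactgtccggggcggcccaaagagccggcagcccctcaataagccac
Adpgk: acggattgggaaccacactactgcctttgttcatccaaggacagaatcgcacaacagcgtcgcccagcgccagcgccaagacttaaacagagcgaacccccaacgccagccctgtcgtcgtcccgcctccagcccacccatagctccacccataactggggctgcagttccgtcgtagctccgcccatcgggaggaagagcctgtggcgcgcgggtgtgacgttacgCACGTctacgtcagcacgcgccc
Tpi1: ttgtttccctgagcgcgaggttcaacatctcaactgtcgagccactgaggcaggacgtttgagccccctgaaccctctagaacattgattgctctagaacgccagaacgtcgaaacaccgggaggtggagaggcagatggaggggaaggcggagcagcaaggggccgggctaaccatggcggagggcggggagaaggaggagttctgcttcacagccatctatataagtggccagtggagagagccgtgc
Pgk1: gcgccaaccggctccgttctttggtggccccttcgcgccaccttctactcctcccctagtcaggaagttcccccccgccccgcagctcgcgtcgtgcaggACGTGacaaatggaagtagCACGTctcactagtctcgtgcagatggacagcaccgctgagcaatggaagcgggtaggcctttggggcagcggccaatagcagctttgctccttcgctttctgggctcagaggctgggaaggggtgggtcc
Pgam1: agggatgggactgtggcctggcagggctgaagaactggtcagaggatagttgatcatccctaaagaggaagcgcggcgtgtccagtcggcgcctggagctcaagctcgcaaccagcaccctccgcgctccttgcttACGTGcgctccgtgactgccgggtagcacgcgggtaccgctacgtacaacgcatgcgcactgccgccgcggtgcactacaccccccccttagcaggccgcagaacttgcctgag
Eno1: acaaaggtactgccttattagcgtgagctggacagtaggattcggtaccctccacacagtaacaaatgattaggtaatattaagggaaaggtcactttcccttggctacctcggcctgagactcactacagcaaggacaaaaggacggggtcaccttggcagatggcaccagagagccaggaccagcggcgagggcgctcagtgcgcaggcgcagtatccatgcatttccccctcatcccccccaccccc
Ldha: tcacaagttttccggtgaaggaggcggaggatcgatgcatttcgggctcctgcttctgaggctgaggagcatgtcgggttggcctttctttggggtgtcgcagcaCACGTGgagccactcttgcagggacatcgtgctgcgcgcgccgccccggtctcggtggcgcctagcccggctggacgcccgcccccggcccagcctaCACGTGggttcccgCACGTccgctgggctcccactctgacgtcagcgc
Slc16a1: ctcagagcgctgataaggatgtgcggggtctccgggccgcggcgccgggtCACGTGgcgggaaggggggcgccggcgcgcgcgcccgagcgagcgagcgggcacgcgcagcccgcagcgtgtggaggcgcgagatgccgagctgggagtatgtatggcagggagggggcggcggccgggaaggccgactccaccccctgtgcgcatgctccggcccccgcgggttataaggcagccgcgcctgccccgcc

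Within these windows Ldha had 5 matches to ACGTG, with each of its 2 E-boxes counted once per strand, Hk2 and Pgk1 had 2, Slc16a1 had 2 from 1 E-box, and Slc2a1, Adpgk and Pgam1 had 1 each. The Tpi1 window and the Eno1 window had none. Counting any window of a gene, ACGTG was present for 16 of the 35 genes (45.7%), and for 18.5% of 27025 genes with a promoter in the RefSeq table. CACGTG was present for 5 of the 35 (14.3%), and for 6.86% of all. The RefSeq genes include some not tested here, and a gene with more windows has more room for a match. Per window, ACGTG was in 37.7% of the 53 windows of these genes and in 16.6% of all 32851. CACGTG was in 9.43% and 6.02% of these windows. Matches also occurred in genes with a difference above 0, Pfkfb3 and Slc16a3 among them. A match is a description of letters and not a binding site.

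Of the 71 other pathway genes tested, 57 had a difference below 0, 3 were called lower and 1 higher. Over all genes 49.5% were below 0, 1.43% were called lower and 7.03% higher. Measured against the median of all genes in their own brightness bin, 49 of the 71 lay below it, with a median of -0.18. Of all genes, 50% lay below the median of their bin. Pcx, pyruvate carboxylase, which feeds pyruvate into the tricarboxylic acid cycle as oxaloacetate, had processed intensities of 26.4 and 22.0 on the arrays labelled Junbfl/flCd4-Cre, against 121 and 100.3 on the controls, and fell (-1.76 ± 0.16, adjusted p = 0.0297). Slc16a7, the high-affinity monocarboxylate transporter MCT2, had 15.6 and 13.8 on the arrays labelled Junbfl/flCd4-Cre, against 9.02 and 8.48 on the controls, and rose (1.18 ± 0.14, adjusted p = 0.0353). The genotypes did not overlap for either gene. Slc16a7 lay in the dimmest bin of control signal, where the median difference of all genes was 1.19. In that bin 987 of 4495 genes were called higher. The rise of Slc16a7 was therefore close to the median of genes of like brightness.

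Among the regulators of glycolytic genes, Egln3, a prolyl hydroxylase that marks HIF-1α for degradation and is itself induced by HIF, had processed intensities of 11.7 and 9.45 on the arrays labelled Junbfl/flCd4-Cre, against 249 and 289 on the controls. It fell by 4.25 ± 0.17 on the log2 scale (adjusted p = 0.0290). Myc, a driver of glycolytic gene expression in activated T cells, had 540 and 511 on the arrays labelled Junbfl/flCd4-Cre, against 1950 and 1493 on the controls, and fell (-1.27 ± 0.19, adjusted p = 0.0439). Both genes were well above background on all 4 arrays with no overlap between genotypes. Without array 2 of Junbfl/flCd4-Cre the differences were -1.75 for Pcx, 1.14 for Slc16a7, -4.21 for Egln3 and -1.35 for Myc, none of them called. After normexp background correction and quantile normalization they were -0.91 for Pcx, 0.13 for Slc16a7, -2.10 for Egln3 and -0.95 for Myc, of which Pcx and Egln3 were called. With the authors' deposited log2 signals they were -1.36, 0.29, -3.05 and -0.81 in the same order, and again Pcx and Egln3 were called.

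In the remaining lists none was called. All 17 genes of the tricarboxylic acid cycle had both arrays labelled Junbfl/flCd4-Cre below both controls, as did 38.5% of all genes and 74.2% of those in the brightest bin. Their median was -0.67, or -0.31 relative to genes of like brightness. At an unadjusted p under 0.05 by limma 12 were lower, against 19.1% of all genes, and 15 to 17 of them lay below 0 under the other settings. Suclg1, a subunit of succinate-CoA ligase, gave -0.67 (adjusted p = 0.0717). All 7 genes of the pentose phosphate pathway, which branches off at glucose-6-phosphate, had a difference below 0, as did 49.5% of all genes. Their median was -0.55, and 5 to 7 of them lay below 0 under the other settings. Relative to genes of like brightness, 4 lay below the median of their bin and 3 above, with a median of -0.20. Rpia gave -0.83 and Rpe -0.61 (adjusted p = 0.0643 and 0.0708). Among the regulators of pyruvate dehydrogenase, Pdk1, a kinase that switches the complex off, gave -0.55 and the complex subunit Pdhx -0.45 (adjusted p = 0.0863 and 0.115). In the glycogen and hexose branches Gpd2 gave -0.61 and Pygl, liver glycogen phosphorylase, 1.00 (adjusted p = 0.0727 and 0.0889). Pygl was well above background on only 3 arrays. It lay in the dimmest bin of control signal, where the median difference of all genes was 1.19.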

How the data were processed

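The 4 Cy3 arrays were quantified by Agilent Feature Extraction (11.5.1.1), per the file headers and the submitters' processing notes. The deposited processed intensity per spot had its background subtracted and was detrended on each array, with no scaling across arrays. A table deposited by the authors holds log2 signals, log2 differences, a p-value with its adjustment, and moderated t and log odds scores; the sources used here do not say how its log2 signals were made. The deposited per-spot flags (well above background, saturated, uneven) are values of 0 or 1.

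Uneven spots were dropped (108 to 215 per array), spots averaged per probe, and log2 signals scaled to the array's 75th percentile. No spot was saturated. Between 59.3% and 66.3% of spots were well above background, and the number of arrays limits the precision. Probes were kept where 1 or both genotypes had them well above background on both their arrays, and the brightest probe stood for its gene. The fit used lmFit and eBayes of limma 3.58.1 in R 4.3.3, without covariates, with Benjamini-Hochberg adjustment over 22475 genes. Python 3.11.15 with pandas 2.3.3 and matplotlib 3.10.9 served for tables and figures. Groups of 2 allow no two-sided exact permutation p below 0.333. Names were updated through RefSeq (GRCm38.p6); probe positions are those in the files (mm9). The script was tested on simulated data. Alternatives were other scalings, background corrections, filters, probe rules, variance models, a replicate block, the authors' log2 signals and leaving out each array. All arrays lay on 1 slide and in 1 scan, with the arrays numbered 1 in slide row 1 and those numbered 2 in slide row 2.

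The members, the lists and the settings were chosen with earlier results of these data known. Every member is named; of the other pathway genes, those called and, per list with none called, up to 2 with the smallest p. The result of 1 gene that this rule names is not reported here.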

Additional observations from a re-analysis of the deposited data

How the results depend on the processing

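The 5 calls depended on the processing. Scaled to the median, limma called 20 of the 36 genes, 42 of the other pathway genes and 9416 of all genes, with a median over the 36 of -0.88. Quantile normalization gave 0, 2 and 455 with a median of -0.21, cyclic loess 0, 2 and 703 with -0.019, and normexp with quantile normalization 1, 2 and 315 with -0.19. The authors' log2 signals gave 2, 2 and 618 with -0.13, and a trend of the variance on signal gave 13, 14 and 4154. With no filter on dim probes all 3 counts were 0 (8825 genes at an unadjusted p under 0.05), and with probes well above background on all 4 arrays 1259 genes were called. The mean over the probes of a gene gave a median of -0.23 and 7 called. Leaving out each array in turn gave 0 calls in all 3 counts (4954 to 8140 genes at an unadjusted p under 0.05, with the lone array assumed to vary like the other genotype) and a median over the 36 between -0.39 and -0.32. Relative to the median of their brightness bin, the median of the 36 stayed within 0.1 of 0 under the settings run. The median of the 36 was below 0 under every setting.

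The genotypes share the replicate numbers 1 and 2, which coincide with slide rows. The deviations of same-numbered arrays correlated at 0.50, but with only 2 pairs and no label that ties them, this does not establish a pairing. With the replicate number as a block, 14 of the 36 genes (10 lower and 4 higher), 19 other pathway genes and 6849 genes were called, and each gene's difference was as without it. The planned block for slide or scan was not run, since there was 1 slide and 1 scan.

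Single genes near 0 turned sign. Scaled to the array median, Slc2a3 was -0.53, Slc2a8 was -0.32, Hk1 was -0.44, Hk3 was -0.20, Aldoc was -0.44, Pfkfb2 was -0.32, Pfkfb4 was -0.22, Ldhb was -0.41, Slc16a3 was -0.14. Under quantile normalization, Slc2a8 was -0.27, Hk3 was -0.0738, Bpgm was 0.0148. Under cyclic loess normalization, Slc2a8 was -0.20, Pfkl was 0.0648, Pfkm was 0.0506, Aldoa was 0.13, Gapdh was 0.0697, Bpgm was 0.0873, Mpc2 was 0.0067. After normexp background correction and quantile normalization, Slc2a8 was -0.0447, Hk3 was -0.0077, Bpgm was 0.0492. With the authors' deposited log2 signals, Slc2a8 was -0.0779, Hk3 was -0.0887, Pfkl was 0.015, Aldoa was 0.0375, Bpgm was 0.066. With the mean over the probes of a gene, Hk1 was -0.0193, Ldhb was -0.0199, Pdha1 was 0.0207. With each array left out in turn, Slc2a3 between -0.13 and 0.14, Slc2a8 between -0.017 and 0.44, Pfkl between -0.37 and 0.018, Aldoc between -0.15 and 0.34 and Ldhb between -0.0065 and 0.26 lay on both sides of 0. The cause of these changes was not tested.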

Other observations

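Gapdh is often used as a reference transcript. Its 7 probes had a median log2 difference of -0.62, and with that value subtracted 10 of the 36 genes lay below 0, among them Tpi1 at -0.87, Eno1 at -0.80, Hk2 at -0.75, Slc2a1 at -0.71, Adpgk at -0.71 and Pgam1 at -0.62. Pgk1 was then at -0.32 and Ldha at -0.24. Pfkfb3 was at 1.62 and Eno3 at 1.74. Gapdh itself was at 0.27, since each gene was read at its brightest probe and that of Gapdh gave -0.36. The count of 10 therefore depends on the Gapdh value subtracted. The share of all genes below that value was not computed.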
